A study of Mus musculus with 10 samples.

Results

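The genes described here make ribosomes and degrade or trim RNA in the nucleus. They are the mouse protein-coding genes whose symbol begins with Utp, Nop, Nol, Exosc, Rrp, Pop or Rpp followed by a digit, together with Imp3, Imp4, Bop1, Pes1, Fbl and Dkc1. The rule found 64 of the 21774 protein-coding genes of the RefSeq annotation. Each was looked up by symbol in the lists of ARID2-enriched transcription start sites (TSSs) at postnatal day 28 (P28) and at P28.5. ARID2 is a subunit of PBAF, a chromatin remodelling complex of the SWI/SNF family, and its genomic associations were mapped by CUT&RUN, in which an antibody tethers a nuclease that cuts the chromatin around its target.

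All cells came from testes of wild-type CD1 mice. The pups received an inhibitor of retinoic acid synthesis by gavage from P1 to P10, and 1 injection of retinoic acid at P11, so that germ cells developed in step. Spermatogenic cells were taken by digestion and filtration 17 days later at P28 and 17.5 days later at P28.5. They were enriched for spermatocytes in pachynema or diplonema and at metaphase, and were not sorted by type, so the share of each stage behind a listed TSS is not known. The paper reports that the cell mixture differed between the ages. Tubules at P28.5 held more round spermatids than at P28, and a smaller proportion of spermatocytes in leptonema or zygonema. Each age had 2 ARID2 libraries, 2 libraries for BRG1, the ATPase of PBAF, and 1 control library without primary antibody. The 2 ARID2 libraries of an age were averaged, as a log2 ratio to the control, before RefSeq TSSs were clustered by k-means, and the list of an age holds the TSSs of its ARID2-enriched cluster, cluster-1. A row is a position and a symbol, with no strand, no signal value and no read count, so neither the depth behind a row nor the spread between replicates can be read from it. The BRG1 libraries are not part of the results below.

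Ribosome synthesis starts in the nucleolus, where RNA polymerase I makes a long precursor RNA. The small-subunit processome folds and cuts the part that becomes the small subunit, small nucleolar ribonucleoproteins (snoRNPs) guide its methylation and pseudouridylation, and separate factors assemble the large subunit. The RNA exosome then trims spacer fragments and also degrades other nuclear RNA, RNase MRP cuts the precursor between the parts for the small and the large subunit, and RNase P matures transfer RNA. In the testis these steps serve germ cells through the long meiotic prophase. Utp14b, an autosomal retrogene copy of the X-linked Utp14a, is known as a gene needed for spermatogenesis, and Exosc10 is needed in germ cells for male fertility.

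At P28, 22 of the 64 members (34.4%) were named in the list, beside 16.8% of all protein-coding genes. At P28.5, 21 members (32.8%) were named, beside 11.6%. The members' share at P28 had a 95% Wilson interval of 23.9% to 46.6%, and that at P28.5 one of 22.6% to 45%. These intervals cover counting only, and genes are not replicates of an age. At either age, 28 members (43.8%) were named, beside 19.9%. In both lists there were 15 members (23.4%), beside 8.48% of all protein-coding genes. The P28 list alone named 7 members (10.9%), beside 8.33%, and the P28.5 list alone named 6 (9.38%), beside 3.13%. The remaining 36 members were in neither list. The difference between the ages was not tested, since each list was made from averaged libraries and the signal of the single libraries was not used. The paper reports more mapped read pairs for each ARID2 replicate at P28.5 than at P28. It also reports far fewer ARID2 peaks at P28.5, and a smaller share of enriched TSSs that overlapped a peak.

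**Figure D1:**
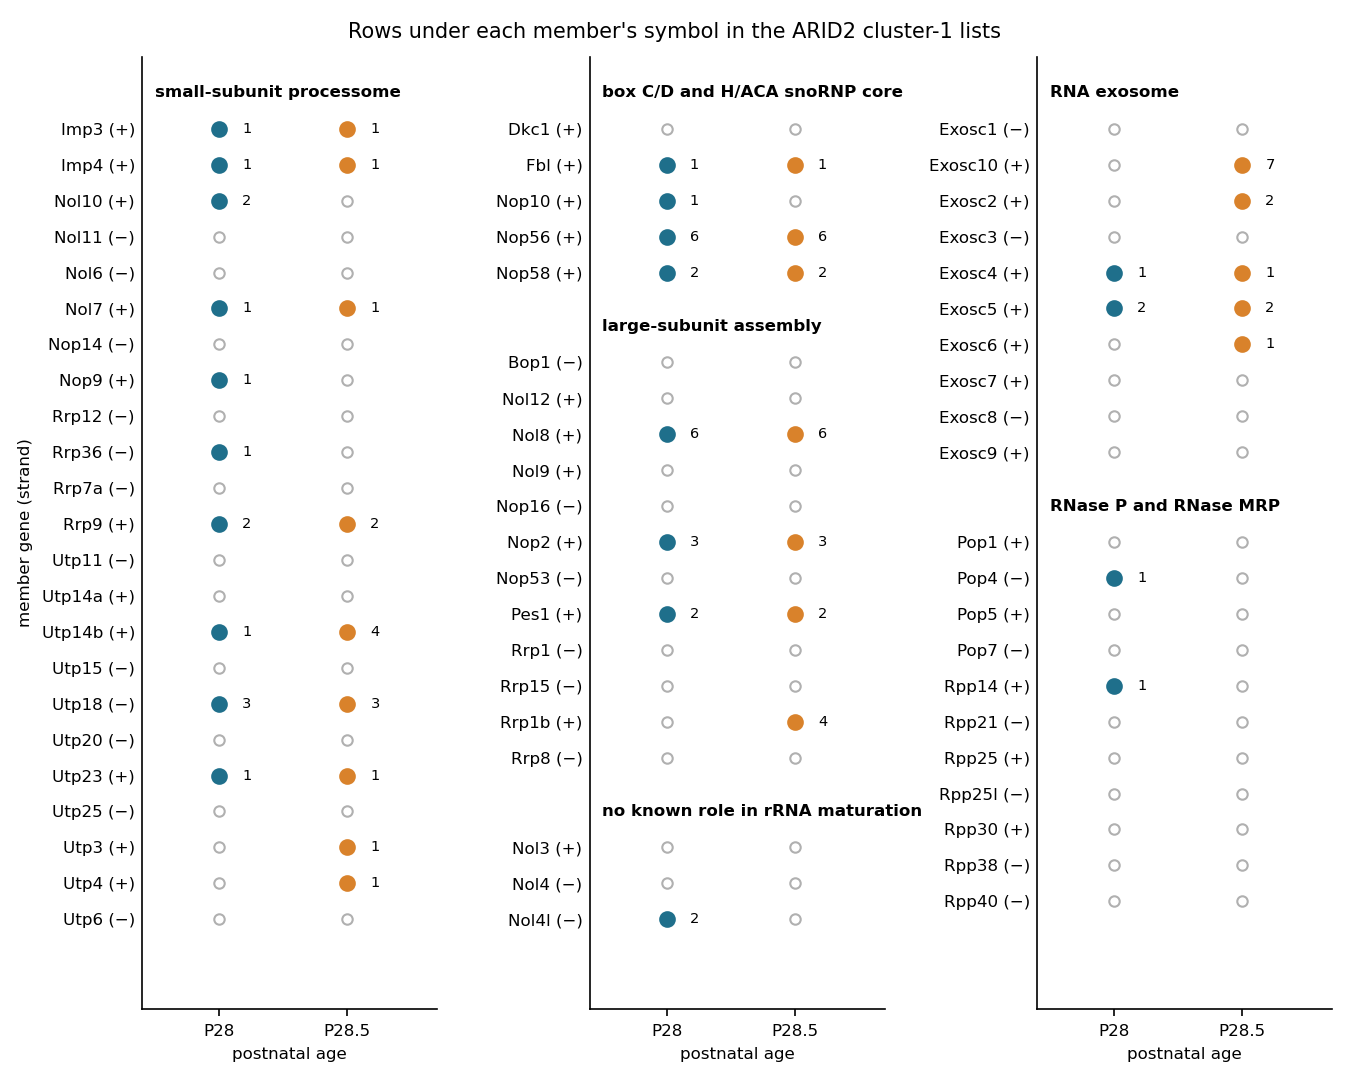
Number of list rows under the symbol of each of the 64 members at P28 (blue) and P28.5 (orange), by role, with the strand of the gene in brackets. Filled points carry the number of rows and open points mark members with no row. Exosc10 has 7 rows at P28.5 and none at P28, while Nop56 and Nol8 have 6 rows at each age.

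Plus-strand members were named more often than minus-strand members. Of the 35 plus-strand members, 18 (51.4%) were named at P28, beside 26% of all plus-strand genes, and 20 (57.1%) at P28.5, beside 20.4%. Of the 29 minus-strand members, 4 (13.8%) were named at P28, beside 7.61%, and 1 (3.45%) at P28.5, beside 2.86%. The lists as deposited seldom hold the 5′ ends of minus-strand genes. Of the 11553 rows at P28, 42.4% equalled the 5′ end of an annotated plus-strand transcript, 12.8% fell on the lower coordinate of a minus-strand transcript, where that transcript ends, and 0.0779% fell on a minus-strand 5′ end. Of the 8514 rows at P28.5 these shares were 51.2%, 1.43% and 0.094%. A minus-strand member with no row therefore cannot be told apart from one whose 5′ end was not among the listed coordinates, and the plus-strand counts are the ones that can be read gene by gene.

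A count by position, whatever symbol the row carries, was taken beside the count by symbol. At P28, 24 members (37.5%) had an annotated 5′ end with some listed position no more than 2000 bp away, beside 17.3% of all protein-coding genes. At P28.5 there were 26 (40.6%), beside 14.8%. Minus-strand members counted this way were 7 of 29 (24.1%) at P28 and 6 of 29 (20.7%) at P28.5, and among all minus-strand genes the shares were 9.58% and 8.62%.

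**Figure D2:**
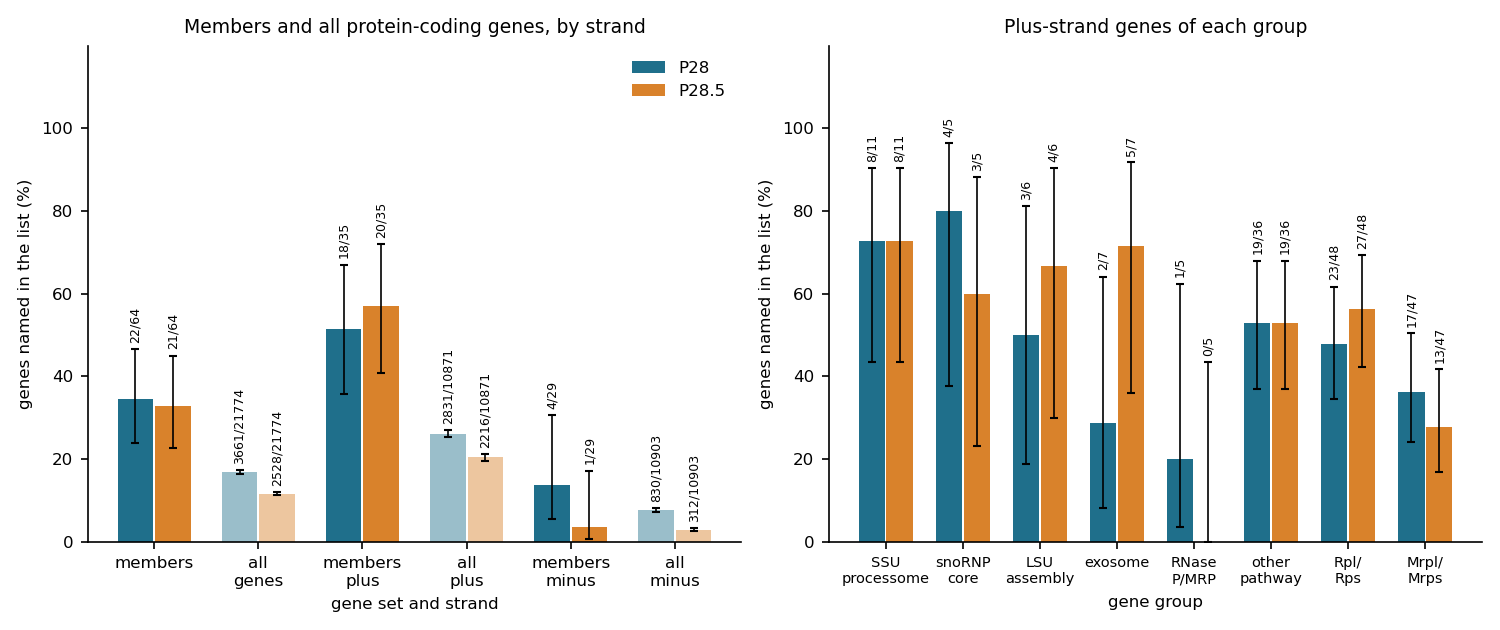
Share of genes named in the P28 (blue) and P28.5 (orange) lists, in percent, with 95% Wilson intervals and the counts above each bar. The left panel sets the members beside all protein-coding genes (pale bars), overall and by strand, and the right panel gives the plus-strand genes of each group, SSU and LSU being the small and the large subunit. Members on the plus strand stand at 51.4% and 57.1%, and all plus-strand genes at 26% and 20.4%.

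The small-subunit processome was the biggest group, with 23 members. At P28, 10 of them (43.5%) were named, beside 16.8% of all protein-coding genes, and at P28.5, 9 (39.1%), beside 11.6%. The 7 in both lists (30.4%) stood beside 8.48% of all protein-coding genes. On the plus strand 8 of 11 (72.7%) were named at each age, beside 26% and 20.4% of all plus-strand genes. Of the 11, 10 were named at one age or the other. This left only the X-linked Utp14a (9.09%) in neither list, beside 68.4% of all plus-strand genes. The members in both lists were Imp3 and Imp4, which pair the U3 snoRNA with the precursor, Nol7, Rrp9, a U3-specific protein, Utp14b, an activator of a processome helicase, Utp18, of the UTP-B complex, and Utp23. Nol10, Nop9, an RNA-binding protein with pumilio repeats, and Rrp36 were named at P28 alone. These counts are by symbol, and the P28 rows of Rrp36 and Utp23 lay 6864 and 12933 bp from a 5′ end of their gene. Utp3 and Utp4, a member of the complex that binds the nascent precursor first, were named at P28.5 alone. The 11 members of this group in neither list were Nol6, Nol11, Nop14, Rrp7a, Rrp12, Utp6, Utp11, Utp14a, Utp15, Utp20 and Utp25, and Utp14a was the only 1 of them on the plus strand.

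The snoRNP core had 5 members, all on the plus strand. At P28, 4 (80%) were named, beside 26% of all plus-strand genes, and at P28.5, 3 (60%), beside 20.4%. The methyltransferase fibrillarin (Fbl) and its box C/D partners Nop56 and Nop58 were named at both ages. Nop10, a small protein of the H/ACA particle, was named at P28 alone, and Dkc1, the pseudouridine synthase of that particle, was in neither list. Nop56 had 6 rows at each age, 5 of them at position 130274367 of chromosome 2 and 1 at 130274412, and both positions were annotated 5′ ends of the gene. Between its annotated ends Nop56 holds 5 annotated snoRNAs on the same strand, and Nop58 holds 4. Whether each lies in an intron was not examined. Fbl was listed at 28169748 on chromosome 7, its second annotated 5′ end, 855 bp inside the outermost one.

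Of the 12 members for the large subunit, 3 (25%) were named at P28, beside 16.8% of all protein-coding genes, and 4 (33.3%) at P28.5, beside 11.6%. All were among the 6 plus-strand members of the group, of which they made up 50% and 66.7%, beside 26% and 20.4% of all plus-strand genes. Pes1, of the PeBoW complex, Nop2, a methyltransferase, and Nol8 were named at both ages, and Rrp1b at P28.5 alone. Nol8 had the most rows of the group, 6 at each age, at the same 4 positions between 49653078 and 49653138 on chromosome 13. Those positions lay 128 to 188 bp from the 5′ end of Cenpp, a centromere gene on the opposite strand. The 8 members of the group in neither list were Bop1, Nol9, Nol12, Nop16, Nop53, Rrp1, Rrp8 and Rrp15, of which Nol9, an RNA kinase, and Nol12 are plus-strand genes.

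The RNA exosome had 10 members, of which 2 (20%) were named at P28, beside 16.8% of all protein-coding genes, and 5 (50%) at P28.5, beside 11.6%. Among its 7 plus-strand genes the counts were 2 (28.6%) and 5 (71.4%), beside 26% and 20.4% of all plus-strand genes. The Wilson intervals of these plus-strand shares were 8.22% to 64.1% and 35.9% to 91.8%. They cover counting only, and both rest on the same 7 genes. The difference between the ages was not tested. Exosc4 and Exosc5, subunits of the ring, were in both lists. Exosc2, a subunit of the cap that contacts RNA, Exosc6, of the ring, and Exosc10, the nuclear exonuclease on top of it, were named at P28.5 alone. Exosc7 and Exosc9, both plus-strand ring genes, and the minus-strand Exosc1, Exosc3 and Exosc8 were in neither list.

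RNase P and RNase MRP had 11 members. Pop4 and Rpp14 (18.2%) were named at P28, beside 16.8% of all protein-coding genes, and none at P28.5, beside 11.6%. The only row of Pop4 lay 45367 bp upstream of the gene. Counting only rows within 2000 bp of a 5′ end of the named gene left Rpp14 alone at P28, beside 13.7% of all protein-coding genes. Pop1, Pop5, Rpp25 and Rpp30 are plus-strand genes and were in neither list, and neither were the minus-strand Pop7, Rpp21, Rpp25l, Rpp38 and Rpp40. On the plus strand the group stood at 1 of 5 at P28 and 0 of 5 at P28.5, beside 26% and 20.4% of all plus-strand genes, and the other plus-strand groups named above stood between 28.6% and 80%. With 5 genes the Wilson interval at P28.5 reached 43.4%. The rule also takes in 3 symbols without a known role in the maturation of ribosomal RNA. Nol4l was named at P28, and Nol3, a repressor of apoptosis, and Nol4 were in neither list.

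The listed positions of the members lay close to their annotated 5′ ends. At P28 the members had 42 rows at 33 distinct positions, of which 19 equalled an annotated 5′ end of the same gene, 28 lay within 250 bp of one, and 3 lay beyond 2000 bp. At P28.5 they had 52 rows at 36 distinct positions, of which 21 equalled a 5′ end and all 36 lay within 250 bp, the farthest at 167 bp. By annotation, 22 of the 33 positions at P28 and 29 of the 36 at P28.5 were in noncoding exon sequence of the member, and 7 and 6 lay upstream of it. The lists shared 22 member positions, with 11 in the P28 list alone and 14 in the P28.5 list alone. Of the 15 members in both lists, 13 had the same positions at both ages, and the exceptions were Utp14b and Utp23. These overlaps are given for the members alone, and whether they differ from those of all listed positions was not tested.

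**Figure D3:**
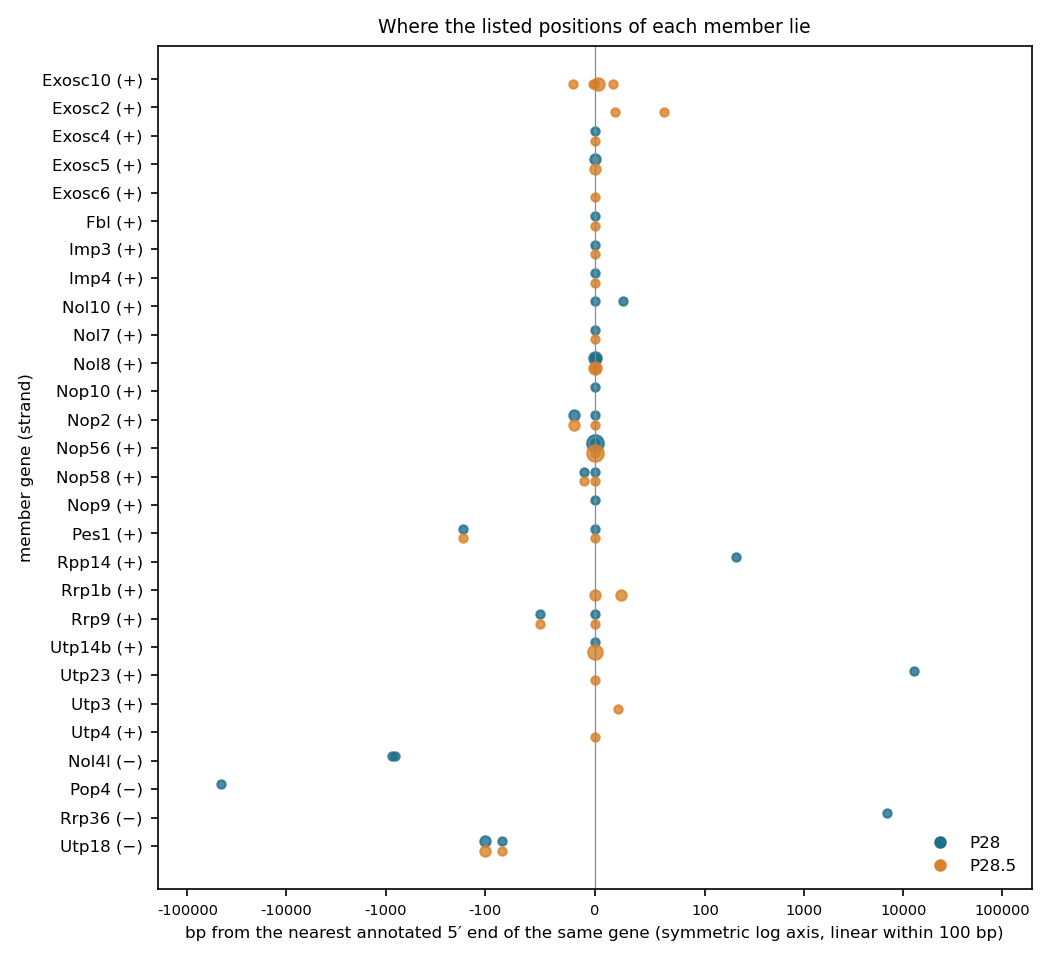
Distance in bp of each listed position from the nearest annotated 5′ end of the same gene for the 28 named members, on a symmetric log axis that is linear within 100 bp, with negative values upstream. Point size grows with the number of rows at a position, blue is P28 and orange P28.5. The points away from 0 by more than 2000 bp are the P28 positions of Pop4, Rrp36 and Utp23.

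Utp14b was listed at different annotated 5′ ends at the 2 ages. At P28 it had 1 row at 78658440 on chromosome 1, and at P28.5 it had 4 rows at 78657825, which is 615 bp upstream. The upstream position is also the 5′ end of Acsl3, a fatty acid ligase gene on the same strand that spans Utp14b, and no row at either age carried the symbol Acsl3. A signal at that start cannot be assigned to Utp14b rather than Acsl3. Utp14a, the X-linked gene from which Utp14b arose, had no row, and the nearest position listed on its chromosome lay 74939974 bp off in the P28 list and 50667335 bp off in the P28.5 list. Dkc1, the other X-linked member, had none either. Of all 963 X-linked protein-coding genes, 0 were named at P28 and 2 at P28.5.

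Utp23 was named at both ages but at unlike places. At P28.5 its row was at 51877441 on chromosome 15, the annotated 5′ end. At P28 its row was at 51890374, which is 12933 bp from that end and 5752 bp past the annotated end of the gene. The P28 rows of Pop4 and Rrp36 were similarly placed away from a start. The position listed for Pop4, 38316760 on chromosome 7, was 45367 bp upstream of the gene and 116 bp from the 5′ end of Gm9220. The position listed for Rrp36, 46667442 on chromosome 17, was in an exon of this minus-strand gene, 6864 bp from its 5′ end and 1119 bp from its lower end. The 2 rows of Nol4l, at 153492740 and 153492790 on chromosome 2, lay in an intron of its longest transcripts, 802 and 852 bp upstream of its nearest 5′ end and 125 and 175 bp from that of 4930404H24Rik on the other strand. Counting only rows within 2000 bp of a 5′ end of the named gene left 19 members (29.7%) at P28, beside 13.7% of all protein-coding genes, and all 21 (32.8%) at P28.5, beside 11.4%.

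The other members of the P28 list alone were at or near a start. Nop10 was listed at its 5′ end, 112261926 on chromosome 2, and Nop9 at its 5′ end, 55745693 on chromosome 14, which lies 9 bp from the 5′ end of the opposite gene Dhrs1. Nol10 had rows at 17348447 and 17348493 on chromosome 12, the second of which is an annotated 5′ end. Rpp14 was listed at 8080519 on chromosome 14, in an intron 206 bp downstream of a 5′ end that it shares with Htd2, a gene of mitochondrial fatty acid synthesis. In the P28.5 list these members had no row, and the nearest listed position of any gene was 1065784 bp from Nop10, 73313 bp from Nop9, 81826 bp from Nol10 and 6265688 bp from Rpp14.

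The members of the P28.5 list alone were all plus-strand genes listed within 63 bp of a 5′ end. Exosc10 had 7 rows, the most of any member at this age, at 5 positions in a first group from 148558422 to 148558427 and a second at 148558666 and 148558693 on chromosome 4. Exosc2 was listed at 31670737 and 31670782 on chromosome 2, and Exosc6 at its 5′ end, 111056339 on chromosome 8. Rrp1b had 2 rows at each of 32036409 and 32036434 on chromosome 17. Utp3 was listed at 88554483 on chromosome 5, 21 bp inside its start, and Utp4 at its 5′ end, 106893640 on chromosome 8, which is 47 bp from the opposite gene Chtf8. At P28 the nearest listed position of any gene was 28038 bp from Exosc10, 17818 bp from Exosc2, 22418 bp from Exosc6, 65552 bp from Rrp1b, 210551 bp from Utp3 and 137686 bp from Utp4. Rrp1, the paralogue of Rrp1b on the minus strand, had no row, and the nearest position in the P28 list lay 143800 bp from it and that in the P28.5 list 161302 bp. Rpp25 and its paralogue Rpp25l likewise had no row, and the nearest listed positions lay 40158 bp from Rpp25 and 117437 bp from Rpp25l in the P28 list, and 17130 and 143723 bp from them in the P28.5 list.

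Plus-strand members with no row were far from any listed position. The 17 such members at P28 were 11347 bp or more from one, with a median of 65552 bp, and the 15 at P28.5 were 17130 bp or more from one, with a median of 162150 bp. Minus-strand members with no row were of both kinds, the nearest at 6 bp in the P28 list and at 49 bp in the P28.5 list. The near ones had a listed neighbour on the plus strand that starts back to back with them. Bop1, of the PeBoW complex, lay 118 bp from a position listed as Hsf1, the heat shock transcription factor, at both ages. Nop14 lay 231 bp from one listed as Grk4, Nop16 134 bp from one listed as Higd2a, and Utp15 84 bp from one listed as Ankra2, again at both ages. Rrp8, a methyltransferase of ribosomal RNA, lay 6 bp from a position listed as Ilk at P28 alone, and Exosc1 49 bp from one listed as Zdhhc16 at P28.5 alone. Utp18, which was itself named, had its rows at 93885850 and 93885866 on chromosome 11, 84 and 100 bp upstream of its own 5′ end, and the first of these is the 5′ end of Mbtd1, which had 23 rows of its own nearby at each age. To which gene of such a pair a listed position belongs was not tested.

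Divergent starts of this kind were frequent among the members. Of the 64, 18 (28.1%) had the 5′ end of an opposite protein-coding gene within 1000 bp upstream, beside 11.1% of all protein-coding genes. They were 5 of the 15 members in both lists, 1 in the P28 list alone, 1 in the P28.5 list alone and 11 of the 36 in neither. Among all protein-coding genes in both lists the share was 31.9%, and among those in neither it was 8.38%.

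The members also had promoters rich in CpG, taken as CpG count over the count expected from C and G, in the 500 bp flanking the outermost 5′ end on each side. Their ratio ran from 0.0774 to 0.992 with a median of 0.776, beside a median of 0.516 over all protein-coding genes, and 26 of the 64 (40.6%) were among the 20% of genes with the most CpG. Over all plus-strand genes the share named in the lists went with CpG content, rising over 5 equal groups from 8.55% to 46.3% in the P28 list and from 3.49% to 47.1% in the P28.5 list. Of the 18 plus-strand members in the highest of these groups, 11 (61.1%) were named at P28, beside the 46.3% of all such genes, and 13 (72.2%) at P28.5, beside the 47.1%. The Wilson interval of the members' share was 38.6% to 79.7% at P28 and 49.1% to 87.5% at P28.5, and covers counting only. This setting was added after seeing the data, and the difference from all such genes was not tested. In the group below it, 5 of the 12 plus-strand members (41.7%) were named at P28, beside 39.5% of all such genes, and 4 (33.3%) at P28.5, beside 33.2%. The lower groups held 5 plus-strand members. The lowest ratio among the members in both lists, 0.252, belonged to Fbl and was measured at its outermost 5′ end, 855 bp from the start that was listed.

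**Figure D4:**
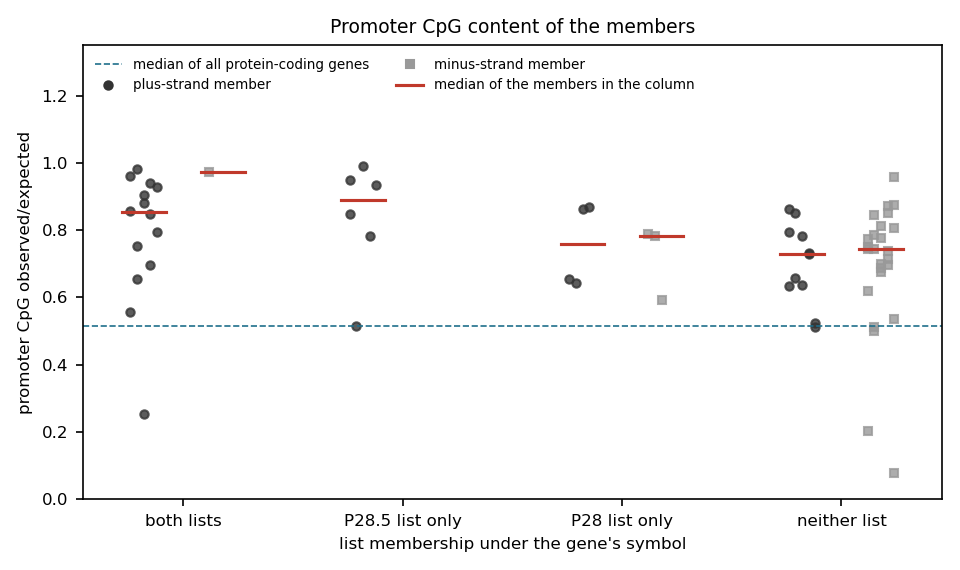
Promoter CpG content of the members, as the ratio of observed to expected CpG, by list membership, with plus-strand members as dark circles, minus-strand members as grey squares, red bars at the median of each column of points and a dashed line at the median of all protein-coding genes. Plus-strand members have medians of 0.854 in both lists, 0.891 in the P28.5 list only, 0.758 in the P28 list only and 0.728 in neither.

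Plus-strand members in both lists had a median ratio of 0.854, those in the P28.5 list alone 0.891, those in the P28 list alone 0.758 and those in neither 0.728. The ranges of these groups overlapped. Over all plus-strand genes the medians in the same order were 0.781, 0.772, 0.625 and 0.354. The median number of rows per named member was 1 in the P28 list and 2 in the P28.5 list, and over all named protein-coding genes it was 2 at both ages. A single row was held by 12 of the 22 members (54.5%) at P28, beside 44.1% of all named genes, and by 9 of the 21 (42.9%) at P28.5, beside 39.1%.

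RefSeq promoter sequences, from 250 bases before to 50 after a start in GRCm38.p6 (mm10), were at hand for 50 of the members in 58 windows. They are shown for the member of each role group with the most listed positions inside 1 window, the earlier symbol being taken in a tie, and for Exosc10 and Utp14b, which were added after their rows were seen because they changed between the ages. Capitals mark matches on either strand to 7 motifs: CACGTG, the E-box bound by MYC, CCGGAAG, an ETS core, GCGCATGCG, an NRF1 core, AAGATGGCG, a YY1 core, TATAAA, the TATA box, TCTCGCGAG, a core of the type tied to ZBTB33, and CCAAT. By position count, Nol10 was tied with Rrp9, Utp15 and Utp18, Nop56 with Nop58, and Exosc1 with Exosc10. No RNase P or RNase MRP member and none of the symbols without a known role had a listed position in a window. A match is a description of the letters and not a site of binding.

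Nop56, chr2:130274162-130274461 on the plus strand, held 2 listed positions at both ages, at the start and 45 bases before it. Nol10, chr12:17348243-17348542 on the plus strand, held 2 at P28. Utp14b, chr1:78658190-78658489 on the plus strand, held the position listed at P28 at its start. Exosc10, chr4:148558169-148558468 on the plus strand, held 3 at P28.5, 3 to 8 bases after the start. Exosc1, chr19:41933265-41933564 on the minus strand, held 3 at P28.5, all listed as Zdhhc16. Rrp8, chr7:105736535-105736834 on the minus strand, held 4 at P28, all listed as Ilk.
Nop56: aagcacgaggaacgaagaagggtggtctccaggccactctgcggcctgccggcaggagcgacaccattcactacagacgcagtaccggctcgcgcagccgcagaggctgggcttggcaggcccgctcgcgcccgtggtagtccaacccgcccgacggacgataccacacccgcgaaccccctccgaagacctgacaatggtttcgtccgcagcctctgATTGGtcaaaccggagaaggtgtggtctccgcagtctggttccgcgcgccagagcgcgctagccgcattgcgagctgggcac
Nol10: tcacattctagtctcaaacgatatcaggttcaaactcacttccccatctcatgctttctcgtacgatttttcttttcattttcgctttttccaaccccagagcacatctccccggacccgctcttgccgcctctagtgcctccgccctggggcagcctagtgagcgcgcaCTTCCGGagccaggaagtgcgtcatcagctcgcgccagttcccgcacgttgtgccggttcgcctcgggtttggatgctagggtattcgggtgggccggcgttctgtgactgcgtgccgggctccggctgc
Utp14b: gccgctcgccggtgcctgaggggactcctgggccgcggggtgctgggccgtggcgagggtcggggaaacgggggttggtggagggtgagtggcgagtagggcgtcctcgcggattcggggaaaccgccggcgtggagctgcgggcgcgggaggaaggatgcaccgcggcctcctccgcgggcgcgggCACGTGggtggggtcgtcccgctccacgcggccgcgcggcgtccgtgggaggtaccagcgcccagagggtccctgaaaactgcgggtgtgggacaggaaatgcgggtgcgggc
Exosc10: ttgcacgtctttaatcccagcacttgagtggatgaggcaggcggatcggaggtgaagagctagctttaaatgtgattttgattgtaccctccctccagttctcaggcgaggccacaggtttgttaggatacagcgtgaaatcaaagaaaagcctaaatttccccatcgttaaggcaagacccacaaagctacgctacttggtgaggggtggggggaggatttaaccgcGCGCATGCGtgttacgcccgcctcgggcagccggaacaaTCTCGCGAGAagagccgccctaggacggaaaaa
Exosc1: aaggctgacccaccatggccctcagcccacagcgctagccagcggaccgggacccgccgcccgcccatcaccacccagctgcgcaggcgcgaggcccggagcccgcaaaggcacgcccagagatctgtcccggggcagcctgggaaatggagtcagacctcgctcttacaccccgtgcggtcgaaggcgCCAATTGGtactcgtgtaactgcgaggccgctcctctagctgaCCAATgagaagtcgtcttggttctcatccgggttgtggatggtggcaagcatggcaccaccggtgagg
Rrp8: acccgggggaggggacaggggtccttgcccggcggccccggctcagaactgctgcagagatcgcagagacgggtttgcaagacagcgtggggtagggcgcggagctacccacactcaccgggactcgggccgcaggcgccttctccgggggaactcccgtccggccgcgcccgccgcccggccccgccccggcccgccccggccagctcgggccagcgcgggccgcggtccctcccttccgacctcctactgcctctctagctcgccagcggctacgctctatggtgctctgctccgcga
The Utp14b window had an E-box 63 bases before the start, and the Nol10 window an ETS core 80 bases before it. The Exosc10 window shown had an NRF1 core 22 bases before the start and a ZBTB33-type core, which reads nearly the same on both strands, just after it. The other Exosc10 window, chr4:148558463-148558762, held 2 positions at P28.5 and ETS cores 64 bases and 1 base before its start. The Nop56 and Exosc1 windows had CCAAT boxes, and the Rrp8 window held none of the 7 motifs.

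The E-box was in 14 of the 58 member windows (24.1%), beside 7.84% of the 21263 windows of all protein-coding genes. Several windows belong to 1 gene and overlap, so by gene it was found in 12 of 50 members (24%), beside 8.91%. These were Exosc5, Imp4, Nol11, Nop2, Pes1, Rpp38, Rrp7a, Utp4, Utp14b, Utp18, Utp20 and Utp25. Among member windows with a listed position it was in 6 of 19 at P28 (31.6%) and 6 of 21 at P28.5 (28.6%), and among those with none in 7 of 32 (21.9%). The last count includes overlapping windows of Utp25. Over all protein-coding genes the same shares were 11.7%, 12.6% and 7.01%. The ETS core was in 20.7% of member windows, beside 11.6%. In windows with a listed position it was in 21.1% at P28, beside 22.9%, and in 28.6% at P28.5, beside 26.2%, and in those with none in 15.6%, beside 9.11%. The ZBTB33-type core was in 8.62% of member windows, beside 0.964%, namely of Exosc10, Nol9, Pop7 and Rpp38. By gene it was found in 4 of 50 members (8%), beside 1.08%. It was in 0 of 19 member windows with a position listed at P28, 1 of 21 at P28.5 (4.76%) and 4 of 32 with none (12.5%), where over all protein-coding genes the shares were 2.86%, 3.37% and 0.614%. The member windows with none include overlapping windows of Nol9. The NRF1 core was in 3.45% of member windows, beside 2.35%, and the YY1 core in 5.17%, beside 1.83%. The TATA box was in 8.62%, beside 12.6%, and CCAAT in 32.8%, beside 38.2%. The shares of listed and unlisted member windows differed by few windows, and the differences were not tested. The members' promoters were richer in CpG than those of all protein-coding genes. Several of the motifs hold a CpG, and the motif shares were not matched for CpG content.

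Genes that work in the same steps under other symbols were counted in the same way. Of 88 such genes, written down by function, 24 (27.3%) were named at P28 and 22 (25%) at P28.5, where the members stood at 34.4% and 32.8%, and on the plus strand 19 of 36 (52.8%) at each age, where the members stood at 51.4% and 57.1%. All protein-coding genes stood at 16.8% and 11.6%. All plus-strand genes, the background for every plus-strand share in this paragraph, stood at 26% and 20.4%. Those for the small subunit stood at 11 of 18 plus-strand genes (61.1%) at P28 and 8 (44.4%) at P28.5, with Heatr1, Wdr75, Rcl1, Ngdn, Tsr3 and Nhp2 in both lists. This set also holds snoRNP proteins and their assembly factors, such as Nhp2, Naf1 and Nufip1. The small-subunit members stood at 72.7% at each age, but their group leaves out the snoRNP core, so these sets are not alike. Those for the large subunit stood at 7 of 13 and 10 of 13, and like the exosome and large-subunit members had more at P28.5, where Mdn1, Ppan and Nmd3 joined, though the difference was not tested. Of 15 exosome nucleases and cofactors, Dis3, its catalytic subunit, and Zcchc7, of a complex that tails RNA for the exosome, were named, both at both ages. On the plus strand 1 of 5 (20%) was named at each age, beside 26% and 20.4% of all plus-strand genes. The plus-strand exosome members stood at 28.6% and 71.4%. Plus-strand genes for cytosolic ribosomal proteins, picked by Rpl or Rps and a digit, stood at 23 of 48 (47.9%) and 27 of 48 (56.2%), and for mitochondrial ribosomal proteins at 17 of 47 (36.2%) and 13 of 47 (27.7%). The first of these families included 10 symbols of S6 kinases, without which its plus-strand shares were 47.8% and 58.7%. The Wilson intervals of the members' plus-strand shares were 35.6% to 67% at P28 and 40.9% to 72% at P28.5, and cover counting only. None of the differences between these sets was tested.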

How the data were processed

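CUT&RUN was measured in 10 libraries, 5 at each of 2 ages. The authors trimmed the reads, aligned them to mm10 with Bowtie2 and processed them with SAMtools and deepTools, without blocklisted regions and PCR duplicates. They scaled coverage by effective library size, took the log2 ratio to the control without primary antibody, averaged the replicates and clustered RefSeq TSSs by k-means. The deposited values are genomic positions with a symbol, not a measurement, and were read as deposited. The depth of a single TSS is not given in the sources used here.

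Listed symbols were paired with genes of the RefSeq annotation of GRCm38.p6, if need be by a synonym unique to 1 gene, and no member needed one. A gene was listed if its symbol stood on at least 1 row. Distances were taken to the annotated 5′ ends of the gene's transcripts. CpG content was divided into 5 groups of equal size over 21774 protein-coding genes. Shares have 95% Wilson intervals, and no test was made. The members, role groups, other pathway genes, families and motifs were chosen with earlier results of these data known. Positions were given for members listed at 1 age, for the member of each group with most rows and for 3 pairs of related genes (Utp14a and Utp14b, Rpp25 and Rpp25l, Rrp1 and Rrp1b). Other positions were chosen after the values were seen. Alternatives were the matching of symbols, the definition of a listed gene, the strand, the autosomes, the role filter and the background. Matching was checked on simulated lists with annotated symbols at or near a 5′ end of the same gene. Synonyms, rows far from a 5′ end and lower ends of minus-strand genes were not simulated. Python 3.11.15, numpy 2.4.6, pandas 2.3.3, scipy 1.17.1, pysam 0.24.0 and matplotlib 3.10.9 were used. The BRG1 lists, peaks and signal tracks were not used here.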

Additional observations from a re-analysis of the deposited data

How the results depend on the processing

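The members' shares stayed inside their own 95% Wilson intervals when symbols were matched as written, when the row had to lie within 2000 bp of an own 5′ end, when positions within 2000 or 500 bp of a 5′ end counted under any symbol, without the symbols that have no known role, and on autosomes alone. They moved with the strand. At P28, P28.5 and both ages, plus-strand members stood at 51.4%, 57.1% and 40%, and minus-strand members at 13.8%, 3.45% and 3.45%. Plus-strand members in the highest of the 5 CpG groups, a setting added after seeing the data, stood at 61.1%, 72.2% and 50%.

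The shares of all protein-coding genes have narrow intervals and moved more often. In the same order of lists they were 17.8%, 12.3% and 8.97% on autosomes, 26%, 20.4% and 14.8% on the plus strand, and 28.8%, 27% and 20% in the highest of the 5 CpG groups. On the plus strand in that group, a setting added after seeing the data, they were 46.3%, 47.1% and 34.6%. Counted by position under any symbol, within 500 bp of a 5′ end, they were 16.2%, 14.3% and 10.5%, and within 2000 bp they were 14.8% at P28.5 and 10.9% at both ages. The members' share was above that of all protein-coding genes under each setting that both were given. No replicate was left out, since each list was made from averaged libraries and the signal tracks of the single libraries were not used. No paired analysis was possible because the lists, the only files read here, carry no replicate. The depth behind a listed position is not known, so the absence of a row is not evidence that ARID2 was absent.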
